A study of Mus musculus with 2 samples.

Results

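The 10 genes described here are targets of the transcriptional regulator YAP chosen by name, 10 of the 31053 genes in the deposited table, and their levels were measured in single cells of mouse small intestinal organoids. They are Cyr61 and Ctgf (the names that the gene list uses for Ccn1 and Ccn2), F3, Nt5e, Tgfb2, Crim1, Amotl2, Lats2, Ankrd1 and Myof. Organoids are epithelial structures grown in culture from intestinal stem cells, and they hold stem cells and their absorptive and secretory offspring but no connective tissue. The study asks how melatonin and prostaglandin E2 bear on YAP-driven regeneration of this epithelium. It has 2 groups of 1 library each, organoids without melatonin (control) and organoids given melatonin, and in each group cells of 3 independent organoid lines were pooled on culture day 3 and counted by a droplet 3′ assay. No other agent, genotype, strain or dose is given in the labels for either group.

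The files of the control sample and of the melatonin sample were identical in 3 of 3 pairs, so both samples hold 1 and the same table. Its cell barcodes end in the suffix 1 or 2, and no label ties a suffix to a treatment. The table was therefore read as 1 sample, each suffix is described on its own, and nothing below compares control with melatonin. The direction of a ratio of suffix 2 over suffix 1 is arbitrary, there are no replicates, no test could be run, and pooled organoid lines cannot be told apart. Of 21806 barcodes, 4066 had at least 500 genes, at least 1000 unique molecular identifiers (UMIs) and at most 20% mitochondrial UMIs. These were 2300 cells of suffix 1 with a median of 29872 UMIs and 1766 cells of suffix 2 with a median of 28759 UMIs. There were 29 barcode sequences that occurred with both suffixes, and they account for 7 of the kept cells.

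In the Hippo pathway, the kinases Stk3 and Stk4 activate the kinases Lats1 and Lats2, which phosphorylate YAP and its relative TAZ (the product of Wwtr1) and keep them out of the nucleus. Unphosphorylated YAP enters the nucleus and binds DNA through TEAD proteins, which switches on genes for secreted matrix proteins, cell surface proteins and inhibitors of YAP itself. In the intestine, YAP is known for its part in repair after injury, when it is active in a regenerative cell state marked by genes such as Clu and Anxa1.

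The promoters of the 4 members that had a UMI in at least 5% of kept cells are shown because most of the results turn on these genes. The RefSeq promoter table (build GRCm38.p6) holds 250 bases before and 50 bases after the transcription start, and 9 of the 10 members matched an entry. Capitals mark GGAATG or its reverse complement CATTCC, the core of the TEAD motif, and TGANTCA, the AP-1 motif, which reads as the same pattern on both strands.
Cyr61 (chr3:145649936-145650235, minus strand): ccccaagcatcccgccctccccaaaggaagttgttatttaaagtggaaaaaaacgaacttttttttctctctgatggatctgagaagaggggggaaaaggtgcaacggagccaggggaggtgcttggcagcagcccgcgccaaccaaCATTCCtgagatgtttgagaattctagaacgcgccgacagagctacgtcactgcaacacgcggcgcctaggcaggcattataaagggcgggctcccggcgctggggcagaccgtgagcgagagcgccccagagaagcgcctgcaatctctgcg
F3 (chr3:121723287-121723586, plus strand): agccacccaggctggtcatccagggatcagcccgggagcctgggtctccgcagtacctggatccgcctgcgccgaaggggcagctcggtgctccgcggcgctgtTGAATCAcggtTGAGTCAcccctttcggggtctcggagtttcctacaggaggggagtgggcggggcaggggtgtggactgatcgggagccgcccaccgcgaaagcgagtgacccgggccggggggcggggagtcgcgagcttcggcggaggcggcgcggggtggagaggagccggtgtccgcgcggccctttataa
Amotl2 (chr9:102717554-102717853, plus strand): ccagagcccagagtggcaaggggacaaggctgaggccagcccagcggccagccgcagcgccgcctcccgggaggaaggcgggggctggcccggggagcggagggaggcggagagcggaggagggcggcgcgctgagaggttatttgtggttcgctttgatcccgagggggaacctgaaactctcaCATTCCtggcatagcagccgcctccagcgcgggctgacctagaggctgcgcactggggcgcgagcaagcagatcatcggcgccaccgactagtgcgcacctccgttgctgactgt
Crim1 (chr17:78199998-78200297, plus strand): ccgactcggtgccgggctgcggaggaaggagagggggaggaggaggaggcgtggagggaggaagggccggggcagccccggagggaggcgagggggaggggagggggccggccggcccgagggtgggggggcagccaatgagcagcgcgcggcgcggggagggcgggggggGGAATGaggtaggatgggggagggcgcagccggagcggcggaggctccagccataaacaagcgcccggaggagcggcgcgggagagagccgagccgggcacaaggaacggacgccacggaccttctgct
Cyr61, Amotl2 and Crim1 each had 1 TEAD match, which began at positions -103, -65 and -79 relative to the start. F3 had no TEAD match and 2 AP-1 matches, at -146 and -135. Of the other members, Ankrd1 had 2 TEAD matches, at -210 and -123, and the upstream promoter of Lats2 had 1 just after the start. In all, 5 of the 9 members had a TEAD match and 1 had an AP-1 match. Of all 32851 promoters in the table, 14.7% held the TEAD letters and 7.81% the AP-1 letters. A match of letters is a description and not evidence of binding.

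The members differed widely in abundance, and most of their UMIs came from 4 genes. Levels are given as UMIs per 1000000 UMIs (CPM) summed over cells, with 95% Poisson intervals that cover counting error only. Because the assay counts 3′ ends, CPM is not scaled by gene length. Cyr61, a secreted matrix protein that signals through integrins, stood at 13.9 CPM (13.0 to 14.9; 858 UMIs) in suffix 1 and 36.9 CPM (35.2 to 38.6; 1884 UMIs) in suffix 2. Ctgf, its close relative, stood at 0.471 CPM (0.315 to 0.676; 29 UMIs) and 0.391 CPM (0.239 to 0.604; 20 UMIs). Cyr61 was thus a common transcript and Ctgf a rare one, with a UMI in 14 cells of suffix 1 and 17 cells of suffix 2.

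F3 encodes tissue factor, the cell surface receptor that starts coagulation, and had 414 UMIs in suffix 1 (6.72 CPM; 6.09 to 7.40) and 1231 in suffix 2 (24.1 CPM; 22.8 to 25.5). Nt5e, a surface enzyme that makes adenosine from AMP (CD73), stood at 1.27 CPM (1.0 to 1.58) and 0.665 CPM (0.461 to 0.930). Tgfb2, a secreted cytokine of the TGF-beta family, stood at 0.325 CPM (0.198 to 0.501) and 0.235 CPM (0.121 to 0.410). Crim1, a transmembrane protein with cysteine-rich repeats that binds bone morphogenetic proteins, stood at 18.7 CPM (17.7 to 19.8) and 13.2 CPM (12.3 to 14.3). Of these surface and secreted proteins, F3 was higher in suffix 2, Nt5e and Crim1 were higher in suffix 1, and the intervals of Tgfb2 overlapped.

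Amotl2 encodes a junction scaffold that holds YAP in the cytoplasm and stood at 3.1 CPM (2.68 to 3.57) in suffix 1 and 6.24 CPM (5.58 to 6.97) in suffix 2. Lats2, the kinase that inhibits YAP and is itself induced by it, stood at 0.487 CPM (0.328 to 0.695) and 1.25 CPM (0.964 to 1.60). Both feedback inhibitors were higher in suffix 2. Myof, a membrane protein of the ferlin family involved in membrane repair, stood at 0.227 CPM (0.124 to 0.381) and 0.822 CPM (0.592 to 1.11). Ankrd1, an ankyrin repeat protein that acts in the nucleus and the muscle sarcomere, had 0 UMIs in suffix 1, where 3 counts would make 0.0487 CPM, and 41 UMIs in suffix 2 (0.802 CPM; 0.576 to 1.09). Of those 41 UMIs, 39 lay in 1 cell.

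On the scale of log2(CPM + 1), which understates the ratio of low genes, suffix 2 over suffix 1 gave 1.34 for Cyr61 and 1.70 for F3. It gave 0.82 for Amotl2, 0.60 for Lats2, 0.57 for Myof, -0.47 for Crim1 and -0.44 for Nt5e. Ctgf was at -0.08 and Tgfb2 at -0.10, and their intervals overlapped. Counting a gene as higher when it was at least 2-fold up on this scale, 2 of the 10 members were higher in suffix 2. These were Cyr61 and F3, and their intervals were apart. The rule itself did not ask for intervals apart. Of 15474 genes with at least 10 UMIs, 0.595% passed the same rule. None of the members was at least 2-fold lower, against 0.297% of all genes. The median over the 10 members was 0.58 and that over all genes 0.03. Ankrd1 has no usable ratio against 0 UMIs, and without its 3 highest cells it has 0 UMIs in both suffixes, so its place above that median rests on those cells and the median moves with them. The count depends on the 1 CPM added before the logarithm, since with 0.1 CPM it was 5 members (Cyr61, F3, Ankrd1, Lats2 and Myof) and with 10 CPM it was F3 alone.

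**Figure D1:**
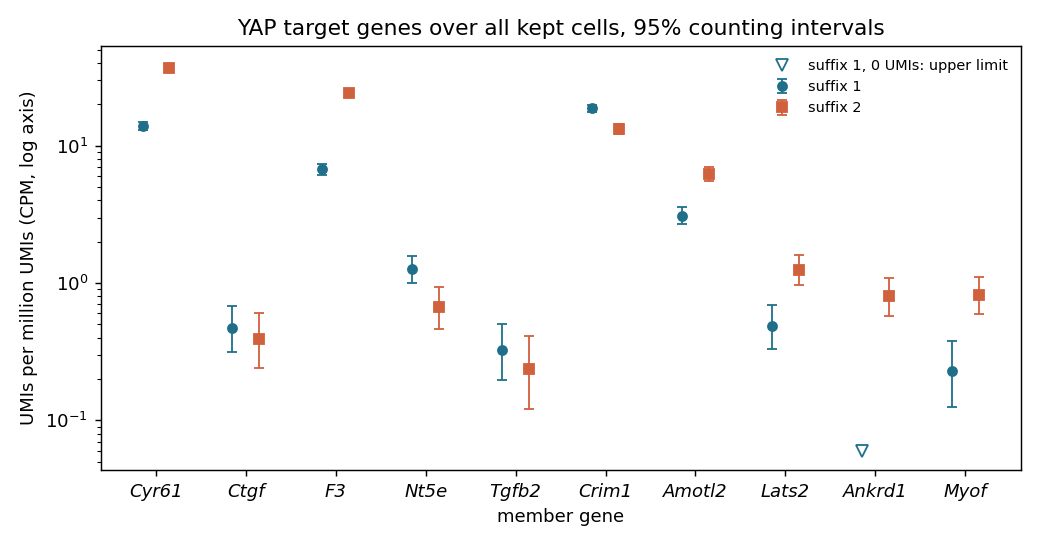
CPM of each member on a log axis over the 2300 kept cells of suffix 1 (circles) and the 1766 of suffix 2 (squares), with 95% counting intervals. The open triangle is the upper limit for Ankrd1, which had 0 UMIs in suffix 1. Cyr61, F3 and Amotl2 sit higher in suffix 2 and Crim1 and Nt5e higher in suffix 1.

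The number of member genes seen in a cell was small and moved with depth. In suffix 1, 1055 cells had a UMI of no member, with a median of 16071 UMIs, 843 had 1 member and 307 had 2. In suffix 2, 615 cells had none, with a median of 17406 UMIs, 614 had 1 and 338 had 2. The cell with most members had 6 in suffix 1 and 8 in suffix 2, where it held 124906 UMIs, the highest total of any kept cell. The Scrublet score of that cell lay at percentile 57.7 of its suffix. No cell was removed as a doublet, and whether single cells of very high totals are doublets was not tested.

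Cells were sorted by the summed UMIs of marker genes, none of which is a member. A cell entered a gate when it had at least 3 markers and passed a level per 10000 UMIs that was set on the markers' own distribution. The enteroendocrine gate (hormone cells; Chga, Chgb, Neurod1 and others) held 287 cells of suffix 1 and 276 of suffix 2, the enterocyte gate (absorptive cells; Fabp1, Apoa1 and others) 112 and 173, and the stem gate (Lgr5, Ascl2, Smoc2 and others) 241 and 187. The revival gate (Clu, Anxa1, Anxa3, S100a6 and others) held 16 and 36 cells, which in suffix 1 is under the minimum of 20 cells set for a comparison. Goblet or Paneth and tuft gates held at most 22 cells and are left out below, 24 and 38 cells passed several gates, and 1591 and 1045 cells passed none. A gate is a range of marker levels and not a cell type. Within 20% of its level lay 704 cells for the stem gate, 75 for the revival gate, 53 for the enterocyte gate and 19 for the enteroendocrine gate. Cells in no gate had a median of 5.69 and 5.88 stem marker UMIs per 10000, against 12.3 in the stem gate of both suffixes. Enteroendocrine markers had medians of 528 and 487 per 10000 in their own gate and at most 0.836 in the enterocyte, stem and revival gates and in ungated cells. Revival markers had medians of 56.5 and 22.3 in the revival gate, where stem markers stood at 4.21 and 4.63.

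The organoid cultures carried little sign of other tissues. Mesenchymal markers summed to 13 UMIs in suffix 1 and 8 in suffix 2, with 4 and 3 of 7 markers at 0. Immune markers summed to 68 and 46 UMIs, with Ptprc at 0 in both. Of the 4 endothelial markers, Pecam1 gave 302 of 305 UMIs and all 165 UMIs, and Cdh5, Kdr and Plvap had at most 1 UMI each.

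Cyr61 was spread over the epithelium, and in suffix 2 it was lowest in enteroendocrine-gated cells. In suffix 1 it stood at 10.2 CPM (7.38 to 13.6) in the enteroendocrine gate, 12.2 CPM (9.80 to 15.1) in the stem gate, 13.5 CPM (12.4 to 14.6) in ungated cells and 23.5 CPM (18.6 to 29.2) in the enterocyte gate. The first 3 of these do not differ beyond their counting intervals, and the enterocyte gate lies above them. In suffix 2 it stood at 8.87 CPM (6.30 to 12.1) in the enteroendocrine gate, 17.6 CPM (14.4 to 21.4) in the enterocyte gate, 29.1 CPM (24.5 to 34.2) in the stem gate and 45.5 CPM (43.2 to 47.8) in ungated cells, and no neighbours in this order overlapped. The suffix difference of Cyr61 thus lay in ungated cells (log2 ratio 1.68) and stem-gated cells (1.18). The enteroendocrine gate (-0.18) and the enterocyte gate (-0.39) had overlapping intervals, so a difference was not detectable there at this depth. Over the alternatives the enteroendocrine ratio ran from -0.86 to -0.095 and the enterocyte ratio from -0.46 to 0.50. The stem ratio turns to -1.07 when the stem level is doubled, which leaves 18 cells of suffix 1 with 8 Cyr61 UMIs and 7 cells of suffix 2 with 1.

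Free RNA in droplets can give a UMI to a cell that does not express a gene, and equal depth does not remove it. Depth differed between the gates, so the share of cells with a Cyr61 UMI was set at 5000 UMIs per cell. This left out 385 shallower cells of suffix 1 and 149 of suffix 2. In suffix 2 that share was 17.0% (14.7 to 19.6) of ungated cells and 3.1% (1.33 to 5.95) of enteroendocrine-gated cells, whose median totals were 32178 and 14660 UMIs. Without thinning the shares were 42.2% and 6.88%. In suffix 1 the shares were 6.13% (4.90 to 7.63) and 3.95% (2.06 to 7.20), with overlapping intervals, and median totals of 32628 and 14287 UMIs. At equal depth the counting intervals of these gates were thus apart in suffix 2 and overlapped in suffix 1. Among ungated cells of suffix 1 called G1, described with the cell cycle phases below, the share was 13.3% (7.84 to 21.5). The part of free RNA in these shares was not tested.

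F3 was concentrated in the revival gate. The 16 revival-gated cells of suffix 1 held 95 of its 414 UMIs (211 CPM; 171 to 258) and the 36 of suffix 2 held 368 of its 1231 UMIs (202 CPM; 182 to 224). The level of F3 outside this gate was 5.21 CPM (4.66 to 5.82) in suffix 1 and 17.5 CPM (16.4 to 18.7) in suffix 2. At 5000 UMIs per cell, 48.8% of revival-gated cells in suffix 1 and 30.9% in suffix 2 had an F3 UMI, against 2.41% and 7.29% of the others. A few cells carried much of this, since the 3 highest revival-gated cells held 76.8% and 67.1% of the gate's F3 UMIs and 1 cell of suffix 2 held 178. Without the 3 highest cells of each suffix, the log2 ratio of the revival gate over other cells went from 5.09 to 3.58 in suffix 1 and from 3.46 to 2.08 in suffix 2.

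Outside the revival gate, F3 in suffix 1 stood at 3.23 CPM (1.77 to 5.42) in the enteroendocrine gate, with ungated cells at 4.85 CPM (4.23 to 5.54), stem-gated cells at 5.48 CPM (3.90 to 7.50) and enterocyte-gated cells at 11.9 CPM (8.52 to 16.1), and the first 3 of these overlapped. In suffix 2 the enteroendocrine gate stood at 4.77 CPM (2.96 to 7.30), the stem gate at 5.57 CPM (3.70 to 8.05), ungated cells at 20.3 CPM (18.8 to 21.9) and the enterocyte gate at 23.2 CPM (19.5 to 27.4). Ungated and enterocyte-gated cells of suffix 2 do not differ beyond their intervals, nor do the enteroendocrine and stem gates. Between the suffixes F3 was higher in suffix 2 among ungated cells (1.87) and enterocyte-gated cells (0.91). In the stem gate F3 stood at 5.48 and 5.57 CPM with overlapping intervals (log2 ratio 0.02). That ratio ran from -2.78 with the stem level doubled to 1.58 with it halved, and 704 cells lie near that level.

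The revival gate of suffix 2 held 6 members at least 2-fold above the other cells, which were F3, Ctgf, Ankrd1, Myof, Amotl2 and Lats2, where 6.71% of 14136 genes passed the same rule. Ankrd1, with 40 of its 41 UMIs in the gate, and Myof passed the minimum of 10 UMIs only through this gate, so the count is a description and nothing is read from it. Myof stood at 20.9 CPM (14.8 to 28.6) in the gate and 0.0812 CPM (0.0221 to 0.208) outside it, so that 38 of its 42 UMIs lay in these 36 cells. In suffix 1 the gate held 7 of the 14 Myof UMIs (15.6 CPM; 6.26 to 32.1).

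Ankrd1 stood at 22.0 CPM (15.7 to 29.9) in the revival gate of suffix 2, and no UMI of it was left without the 3 highest cells. The feedback inhibitors Amotl2 and Lats2 stood at 16.5 CPM (11.1 to 23.5) and 8.24 CPM (4.61 to 13.6) in this gate, against 5.86 CPM (5.21 to 6.58) and 0.994 CPM (0.735 to 1.31) outside it. Ctgf stood at 2.75 CPM (0.891 to 6.41) from 5 UMIs in 5 cells, against 0.304 CPM (0.170 to 0.502). Without the 3 highest cells of each gene, Lats2 (1.84), Ctgf (1.66) and Myof (3.19) stayed over 1 on the log2 scale and Amotl2 (0.74) did not. The members that were not counted in this gate were Cyr61 at 46.1 CPM (36.8 to 57.1), Crim1 at 18.7 CPM (12.9 to 26.1), Nt5e at 1.10 CPM (0.133 to 3.97) and Tgfb2 with 0 UMIs, where 3 counts would make 1.65 CPM. The Cyr61 interval overlapped that of the other cells of suffix 2 (36.5 CPM; 34.9 to 38.2) only at its edge. Its log2 ratio of 0.33 became 1.08 when CPM was averaged over cells, which counts 7 members in place of 6.

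In the 16 revival-gated cells of suffix 1, Amotl2 stood at 11.1 CPM from 5 UMIs, Lats2 at 2.22 CPM from 1 UMI, Cyr61 at 40.0 CPM from 18 UMIs (23.7 to 63.3, against 13.7 CPM and 12.8 to 14.7 in the other cells) and Crim1 at 51.2 CPM from 23 UMIs. Only 4 of these cells had a Cyr61 UMI, and 3 of them held 94.4% of the 18. The log2 ratio of Cyr61 over other cells, 1.48, ran from 0.52 to 2.16 over its alternatives. Ctgf stood at 24.5 CPM, but all 11 of its UMIs came from 1 cell and its log2 ratio over other cells is -0.26 without the 3 highest cells. That cell, in G1 with 42910 UMIs, also held 10 UMIs of Cyr61, 8 of Crim1, 4 of Myof, 3 of Amotl2 and 2 of F3. In suffix 2, the cell with 39 Ankrd1 UMIs had 72691 UMIs in all and also held 8 of Crim1, 7 of Amotl2, 5 of Cyr61, 5 of Myof, 4 of F3, 3 of Lats2 and none of Ctgf. The cell with 178 F3 UMIs, of 113803 in all, held 6 of Amotl2, 3 of Cyr61, 2 of Crim1, 1 of Lats2 and none of Myof or Ctgf. The extreme cells of Ctgf, Ankrd1 and F3 are thus 3 different cells, each with several other members.

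**Figure D2:**
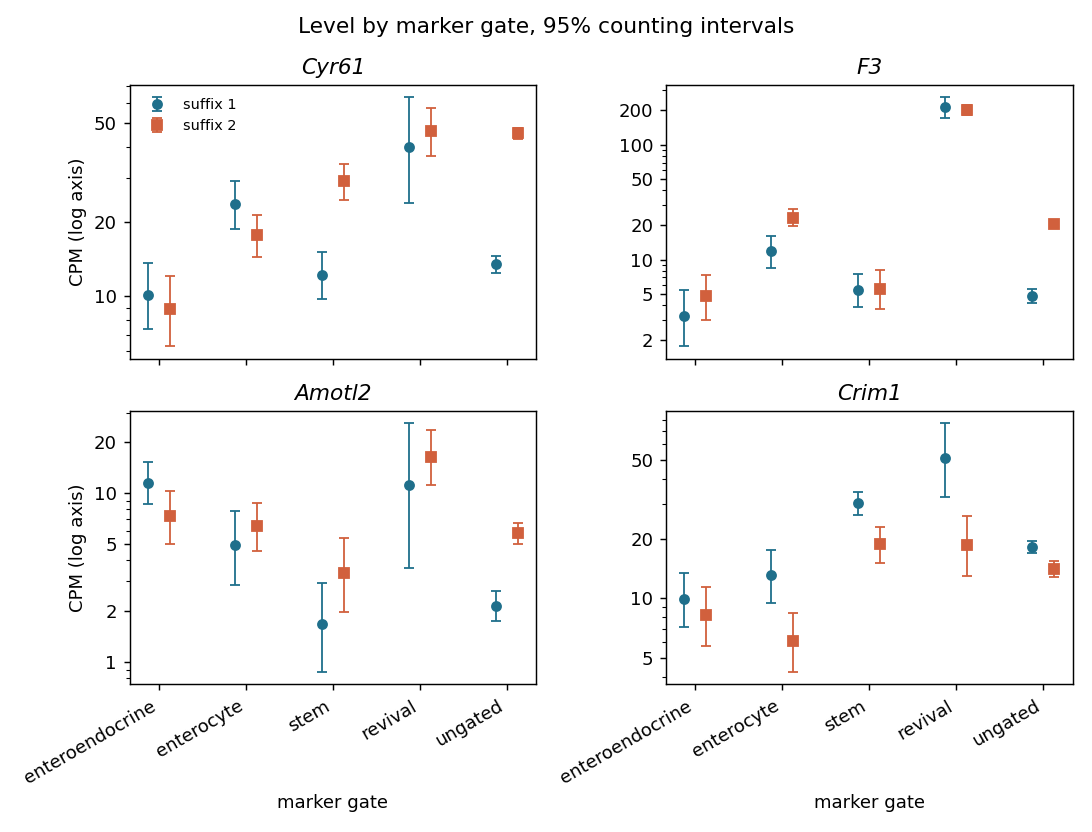
CPM on log axes of Cyr61, F3, Amotl2 and Crim1 in the enteroendocrine, enterocyte, stem and revival gates and in ungated cells, for suffix 1 (circles) and suffix 2 (squares), with 95% counting intervals. F3 stands at 211 and 202 CPM in the revival gate, Cyr61 at 13.5 and 45.5 CPM in ungated cells, and the revival gate of suffix 1 holds 16 cells.

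Lats2 and Nt5e were higher in enteroendocrine-gated cells of both suffixes and Amotl2 in those of suffix 1, where a large part of all genes was also higher. Amotl2 stood at 11.5 CPM (8.57 to 15.2) in this gate and 2.46 CPM (2.07 to 2.90) in the other cells of suffix 1, and at 7.27 CPM (4.98 to 10.3) and 6.14 CPM (5.45 to 6.90) in suffix 2. Lats2 stood at 3.00 CPM (1.60 to 5.13) against 0.297 CPM (0.173 to 0.475) in suffix 1 and at 3.41 CPM (1.91 to 5.62) against 1.05 CPM (0.776 to 1.39) in suffix 2. Its levels in the enterocyte gate, 1.74 CPM (0.638 to 3.78) and 2.18 CPM (1.16 to 3.73), overlapped those of the enteroendocrine gate. The suffix 2 log2 ratio of Lats2, 1.11, fell under 2-fold at the 10% mitochondrial limit (0.88), with CPM averaged over cells (0.96) and with a pseudocount of 10 CPM (0.28). Nt5e stood at 9.23 CPM (6.60 to 12.6) against 0.663 CPM (0.469 to 0.910) and at 3.18 CPM (1.74 to 5.34) against 0.428 CPM (0.262 to 0.661). Nt5e therefore had 40 of its 78 UMIs in suffix 1 and 14 of its 34 in suffix 2 in this gate. It was also lower in the gate of suffix 2 than in that of suffix 1 (log2 ratio -1.29).

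By the 2-fold rule, 3 of 9 members tested in suffix 1 (Amotl2, Lats2 and Nt5e) and 2 of 10 in suffix 2 (Lats2 and Nt5e) were higher in the enteroendocrine gate, against 28.6% and 25.5% of all genes. These counts are near the background and say nothing particular about the members. Median log2 ratios over the members were 0.00 and -0.26, under those over all genes, 0.38 and 0.31. Of 12 other genes known as YAP targets, 7 of 8 tested in suffix 1 and 6 of 9 in suffix 2 were higher in this gate, among them Fjx1 (29.3 against 0.157 CPM, then 18.2 against 0.235), Igfbp3 (15.2 against 0.209, then 6.82 against 0.0214) and Asap1 (45.9 against 4.75, then 52.1 against 4.69). The others were Gadd45a, Nuak2 and Rbms3 in both suffixes and Dock5 in suffix 1. Fjx1 in suffix 1 and Igfbp3 in suffix 2 passed the minimum of 10 UMIs only through the gate, so nothing is read from these counts either. Yap1 itself was lower in the gate, at 5.54 against 24.0 CPM in suffix 1 and 5.23 against 24.3 CPM in suffix 2.

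Of 14 Hippo pathway genes, Tead1, a DNA-binding partner of YAP, stood at 44.8 against 18.1 CPM in the enteroendocrine gate and the other cells of suffix 1 and at 47.1 against 17.6 CPM in suffix 2. Lats1 stood at 51.2 against 22.5 CPM and 54.1 against 22.1 CPM. These 2 genes were at least 2-fold higher in both suffixes, with Stk3 in suffix 1 and Mob1b in suffix 2 besides, so 3 of 13 and 3 of 14 tested, which is no more than the 28.6% and 25.5% of all genes. In the revival gate of suffix 2, 2 of 14 were higher, Wwtr1 at 11 against 1.36 CPM and Tead4 at 10.4 against 0.142 CPM, as were Ptpn14 and Arhgef17 among 9 other targets tested, against 6.71% of all genes. Tead4 and Ptpn14 passed the minimum of 10 UMIs only through this gate, so nothing is read from these counts. Between the suffixes none of the Hippo genes was 2-fold apart on the scale of log2(CPM + 1). On the plain CPM scale Tead4 stood at 0.146 CPM (0.0668 to 0.277) and 0.509 CPM (0.332 to 0.745), and only the added 1 CPM brings its log2 ratio down to 0.40. Yap1 stood at 22.7 CPM in each suffix, with overlapping intervals (21.5 to 23.9 and 21.4 to 24.0). YAP activity was not measured, and its part in the suffix ratios of the members was not tested.

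Crim1 was higher in stem-gated cells than in the other cells, and it was the only member for which this held in both suffixes with intervals apart. It stood at 30.2 CPM (26.3 to 34.6) in the stem gate and 17.2 CPM (16.1 to 18.4) in the other cells of suffix 1, and at 18.7 CPM (15.1 to 22.9) and 12.7 CPM (11.6 to 13.7) in suffix 2. The log2 ratios of 0.78 and 0.53 are under 2-fold. The ratio of suffix 2 ran from 0.07 to 1.22 over its alternatives. Ungated cells stood at 18.2 CPM (17.0 to 19.5) in suffix 1, under the stem gate. In suffix 2 they stood at 14.1 CPM (12.8 to 15.4), which overlapped the stem gate. Among cells called G2M, described below, stem-gated and ungated cells of suffix 2 also overlapped, at 17.8 and 15.2 CPM. In suffix 1 they did not, at 30.7 and 18.6 CPM. The enterocyte gate had 13.0 CPM (9.51 to 17.4) and 6.05 CPM (4.24 to 8.37), and the enteroendocrine gate 9.93 CPM (7.18 to 13.4) and 8.18 CPM (5.73 to 11.3). Crim1 was lower in suffix 2 in the enterocyte gate (log2 ratio -0.99), the stem gate (-0.66) and ungated cells (-0.35), whereas Cyr61 was higher in suffix 2 in the last 2 of these. With no mitochondrial limit the Crim1 ratio over all cells shrank to -0.05 and that of ungated cells turned to 0.14. The enterocyte ratio turned to 0.09 at a 10% limit and the stem ratio to 0.12 with the stem level doubled.

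None of the members was at least 2-fold higher in the stem gate, against 0.0966% of genes in suffix 1 and 0.340% in suffix 2, or in the enterocyte gate, against 7.13% and 7.05%. In the stem gate Myof had 0 UMIs in both suffixes and Lats2 had 0 and 1. Tgfb2 was too rare to place, with 15 of 20 UMIs in suffix 1 and 8 of 12 in suffix 2 in ungated cells. Its level there, 0.332 CPM and 0.247 CPM, overlapped that of the other cells.

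Cell cycle phase was called from S and G2M gene scores, which gave 612, 208 and 1480 cells in G1, S and G2M in suffix 1 and 731, 304 and 731 in suffix 2. Median totals were 15151, 28421 and 35401 UMIs in suffix 1 and 20569, 30981.5 and 37668 in suffix 2, and free RNA enters such scores, so the calls order cells and do not show that a cell divides. Of the G1 cells, 60.0% and 59.0% were in the enteroendocrine or enterocyte gate, against at most 4.33% of S or G2M cells. Cyr61 stood at 21.8 CPM (19.1 to 24.8) in G1, 25.1 CPM (20.9 to 29.9) in S and 10.9 CPM (10.0 to 11.9) in G2M of suffix 1. In suffix 2 it stood at 33.0 CPM (30.3 to 35.9), 64.2 CPM (59.1 to 69.6) and 29.7 CPM (27.7 to 31.9). Cyr61 was thus lowest in G2M in both suffixes, although its G1 and G2M intervals overlapped in suffix 2.

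Among ungated cells alone, Cyr61 stood at 35.5 CPM (28.4 to 43.8) in G1, 25.6 CPM (21.1 to 30.8) in S and 10.7 CPM (9.66 to 11.8) in G2M of suffix 1. In suffix 2 the values were 68.4 CPM (61.2 to 76.2), 67.7 CPM (62.1 to 73.7) and 31.1 CPM (28.6 to 33.6). Without the gated cells, G1 and S overlapped and both were above G2M in each suffix. F3 in the same cells stood at 10.6 CPM (6.93 to 15.5), 4.27 CPM (2.57 to 6.67) and 4.55 CPM (3.90 to 5.28), then at 31.1 CPM (26.3 to 36.5), 27.1 CPM (23.6 to 31.0) and 15.0 CPM (13.4 to 16.8). The intervals of Crim1 overlapped between all 3 phases of ungated cells, at 14.3, 16.4 and 18.6 CPM in suffix 1 and 12.6, 12.3 and 15.2 CPM in suffix 2.

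Over all kept cells, 4 of 9 members tested in suffix 1 (F3, Amotl2, Lats2 and Nt5e) and 3 of 10 in suffix 2 (F3, Lats2 and Myof) were at least 2-fold higher in G1, against 19.8% and 13.0% of all genes. Lats2 in suffix 1, with 23 of its 30 UMIs in G1, passed the minimum of 10 UMIs only through that phase, so nothing is read from the count. The G1 level of F3 was 16.5 CPM (14.1 to 19.2) and its G2M level 4.63 CPM (4.03 to 5.30) in suffix 1, with 39.0 CPM (36.1 to 42.2) and 13.6 CPM (12.2 to 15.1) in suffix 2. Without the 3 highest cells, its G1 ratio went from 1.61 to 0.90 and from 1.15 to 0.49, under 2-fold in both. It was also under 2-fold with CPM averaged over cells (0.71 and 0.47) and, in suffix 2, with phases from summed UMIs (0.33). The Lats2 call was lost with no mitochondrial limit in both suffixes, and a pseudocount of 10 CPM left no member called. For Myof 82.8% of the 29 G1 UMIs of suffix 2 lay in 3 revival-gated cells. Its call was lost without the 3 highest cells, without the top 5% of doublet scores, with no mitochondrial limit and with CPM averaged over cells. Amotl2, Lats2 and Nt5e are the members that were high in the enteroendocrine gate of suffix 1, and the part of gate composition in their G1 values was not tested. In S phase, 0 of 9 members in suffix 1 and 1 of 10 in suffix 2 (Cyr61, log2 ratio 1.03) were 2-fold higher, against 0.856% and 1.15% of genes. The Cyr61 call was lost in 5 of its 9 alternatives, which were the 10% mitochondrial limit, no limit, a pseudocount of 10 CPM, CPM averaged over cells and phases from summed UMIs. Crim1 was higher in G2M than in G1, at 20.1 CPM (18.8 to 21.4) against 13.4 CPM (11.2 to 15.8) in G1 of suffix 1 and 15.8 CPM (14.3 to 17.4) against 9.41 CPM (7.98 to 11) in suffix 2. Its S level, 17.1 CPM (13.7 to 21.1) and 12.9 CPM (10.6 to 15.4), overlapped that of G2M and of G1 in both suffixes.

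**Figure D3:**
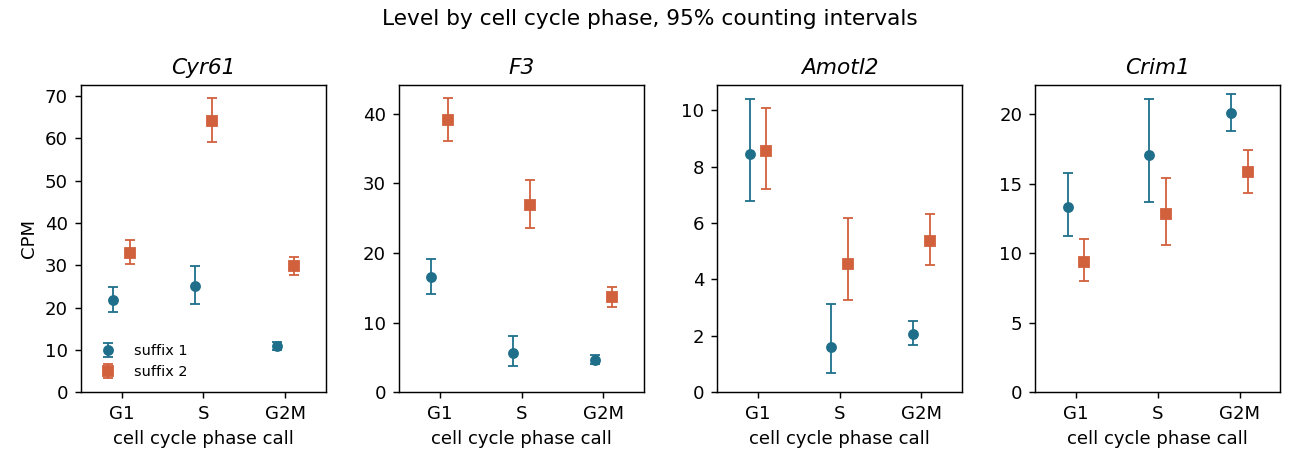
CPM of Cyr61, F3, Amotl2 and Crim1 in cells called G1, S and G2M, for suffix 1 (circles) and suffix 2 (squares), with 95% counting intervals and axes from 0. Cyr61 is lowest in G2M at 10.9 and 29.7 CPM, F3 is higher in G1, at 16.5 and 39.0 CPM, than in G2M, and Crim1 is higher in G2M, at 20.1 and 15.8 CPM, than in G1.

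Genes of the early response to dissociation and heat (Fos, Jun, Egr1, Atf3, Hspa1a and others, 11 in all) are known to rise while a tissue is taken apart, and some YAP targets respond as fast. Kept cells of each suffix were therefore ordered and put into 4 bins of equal size by the summed level of these genes. From the lowest to the highest bin, Cyr61 stood at 6.98, 9.43, 14.5 and 28.6 CPM in suffix 1 and at 10.9, 29.1, 45.9 and 69.0 CPM in suffix 2. Amotl2 stood at 1.68, 1.86, 3.61 and 6.06 CPM, then at 2.79, 5.57, 8.09 and 9.25 CPM. F3 stood at 2.87, 5.37, 8.90 and 10.9 CPM, then at 6.45, 21.0, 40.8 and 29.9 CPM. Each of these 3 members was higher in the top bin than in the bottom one in both suffixes, with intervals apart.

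Crim1 went the other way, from 20.1 CPM (17.9 to 22.4) to 16.0 CPM (13.8 to 18.4) in suffix 1, where the intervals overlapped, and from 14.8 CPM (12.8 to 17.0) to 10.2 CPM (8.37 to 12.3) in suffix 2, where they did not. The bins differed in more than these genes. Enteroendocrine-gated cells made up 3.30% of the lowest and 32.3% of the highest bin of suffix 1, and 4.30% and 36.7% in suffix 2, and the highest bin had the lowest median total (18716 and 21446 UMIs). Early response genes were also somewhat higher in suffix 2 over all cells, with Atf3 at 226 and 369 CPM and Fos at 455 and 552 CPM. Their part in the suffix difference of Cyr61 and F3 was not tested.

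**Figure D4:**
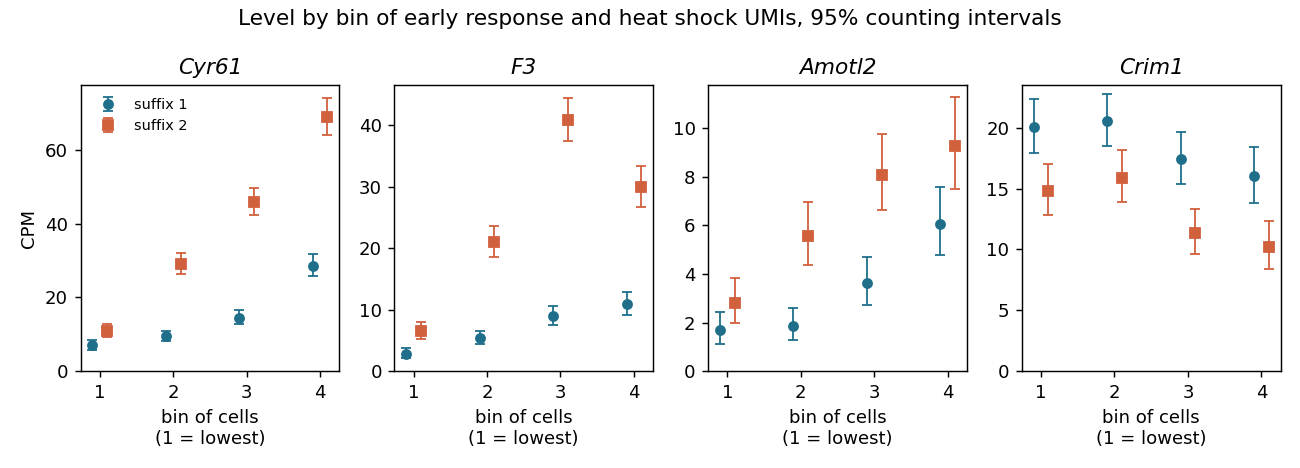
CPM of Cyr61, F3, Amotl2 and Crim1 in 4 equal bins of the kept cells, ordered from the lowest (1) to the highest (4) summed level of 11 early response and heat shock genes, for suffix 1 (circles) and suffix 2 (squares), with 95% counting intervals and axes from 0. Cyr61 goes from 6.98 to 28.6 CPM in suffix 1 and from 10.9 to 69.0 CPM in suffix 2, while Crim1 is lower in the highest bin.

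Co-detection asked whether 2 members were seen in the same cell more often than their single shares would give. For the 6 members with a UMI in at least 1% of cells there are 15 pairs, and each share was taken at 5000 UMIs per cell. The ratio of the share with both to the product of the single shares ran from 0.696 to 4.18 in suffix 1, with a median of 1.03, and from 0.267 to 2.17 in suffix 2, with a median of 1.04. Of the 15 pairs, 8 in suffix 1 and 9 in suffix 2 lay above 1 and the others below it. Cyr61 and F3 had ratios of 1.68 and 1.57, with 96 cells of suffix 1 and 261 of suffix 2 holding both before thinning. The ratio of this pair was 1.73 and 1.58 without revival-gated cells and 1.58 and 1.43 among ungated cells.

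The ratio of Crim1 was 0.964 and 1.0 with Cyr61 (193 cells with both in each suffix), 1.03 and 1.04 with F3, and 0.696 (56 cells) and 1.12 (73 cells) with Amotl2. The highest ratio of each suffix belonged to a pair with Lats2 and rests on few cells. Amotl2 and Lats2 had 4.18 from 6 cells and 1.5 from 15 cells, and without revival-gated cells 4.43 and 0.884. F3 and Nt5e had 2.81 and 0.936, each from 10 cells. Lats2 and Nt5e had 2.66 from 3 cells and 2.17 from 4 cells, and both are genes that were higher in the enteroendocrine gate.

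**Figure D5:**
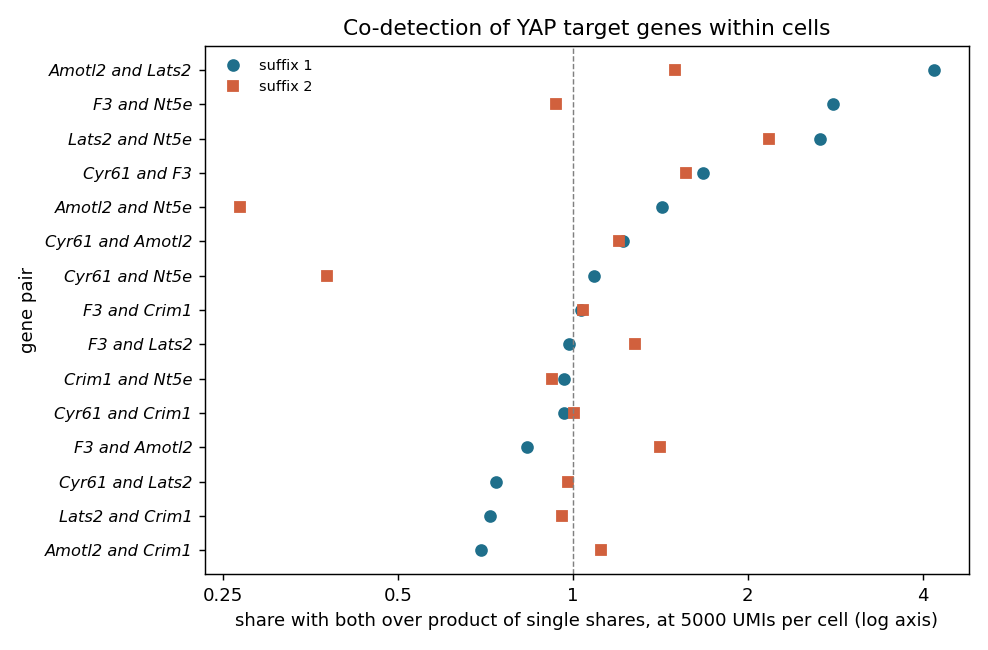
Share of cells with both genes of a pair over the product of the single shares, at 5000 UMIs per cell, on a log axis for 15 pairs of members in suffix 1 (circles) and suffix 2 (squares); the dashed line marks 1. Cyr61 and F3 lie at 1.68 and 1.57, Cyr61 and Crim1 at 0.964 and 1.0, and pairs with Nt5e or Lats2, which rest on few cells, scatter most.

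The genes whose levels followed those of a member most closely were sought among 10693 genes seen in at least 5% of cells, by Pearson's r of log2(CPM + 1) over 2300 and 1766 cells, taking the lower of the values of the 2 suffixes. All cells of a suffix share a library, and r with the total UMIs of the cell was 0.18 and 0.23 for Cyr61, 0.13 and 0.25 for F3, 0.10 and 0.11 for Amotl2 and 0.31 and 0.20 for Crim1. For Cyr61 the 5 genes were Hbegf, an epidermal growth factor receptor ligand (0.23 and 0.31), Pmaip1, Selenoi, Atf3 and Foxq1. For F3 they were Areg, another ligand of that receptor (0.23 and 0.32), Lgals3, Tcim, Cxcl16 and Pmaip1. For Amotl2 they were Maff (0.14 and 0.15), Ppp1r15a, Klf6, Ccnl1 and Atf3, and for Crim1 Kif20b, a kinesin of cell division (0.24 and 0.22), Ect2, Lmnb1, Knstrn and Cldn2. All values are weak and near those with depth, and they are given as a description.

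Among the members, Cyr61 had 0.13 and 0.24 with F3, 0.06 and 0.13 with Amotl2 and 0.07 and 0.04 with Crim1. Pmaip1 stood among the 5 for both Cyr61 and F3, and Atf3 among the 5 for both Cyr61 and Amotl2. Crim1 had no gene in common with the other 3, and Kif20b and Ect2 are themselves in the list that called G2M.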

How the data were processed

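Single-cell RNA of control and melatonin-treated mouse organoids was counted, 1 library per group. The deposited values are raw UMI counts per gene and barcode, with no normalization. Cell Ranger 3.1.0, bcl2fastq 2.20.0 and STAR 2.7.3a are named in the submitters' processing notes; the genome build and annotation are not given in the sources used here. Because both samples hold the same table, it was used once.

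The members, gene lists and tests were chosen with earlier results of these data known. Kept barcodes passed 3 filters: 500 genes or more, 1000 UMIs or more, and a mitochondrial share of 20% or less. Counts were summed over cells, scaled to 1000000 UMIs (CPM), and given 95% exact Poisson intervals; shares have Clopper-Pearson intervals. They cover counting error only. Ratios used a pseudocount of 1 CPM, genes with at least 10 UMIs, and a threshold of 2-fold. Counts of genes past this threshold, for members and for all genes alike, did not require intervals apart. Shares were computed at 5000 UMIs per cell from the hypergeometric distribution. Gate levels, in marker UMIs per 10000, were 25 (enteroendocrine), 100 (enterocyte, and goblet or Paneth), 10 (tuft, stem) and 5 (revival), set after the marker distributions were seen. Phases were called with scanpy 1.11.5. Doublets were not removed; leaving out the top 5% of Scrublet scores was an alternative. All 10 members are named; other YAP targets and Hippo genes are named where they passed the 2-fold rule, and for each member seen in at least 5% of cells the 5 genes with the highest correlation are named. Scripts were tested on simulated counts.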

Additional observations from a re-analysis of the deposited data

How the results depend on the processing

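No paired analysis was possible because the groups share fewer than 2 replicate numbers and the 2 samples hold the same table. Of 612 alternatives to 68 single values, 508 stayed within the counting interval, 100 moved and 4 reversed. Reversed means that a log2 ratio of at least 1 in size changed sign. Sign changes of smaller ratios, such as those of Crim1 and of F3 in the stem gate, were not counted as reversed. The 508 include 8 alternatives to the Ankrd1 ratio between the suffixes and 10 to that in the revival gate of suffix 1. Both ratios were set against 0 UMIs, so their intervals had no upper limit. The log2 ratio of Cyr61 between the suffixes in the stem gate became -1.07 with the gate level doubled. In the revival gate of suffix 1, Ctgf went to -0.26 without its 3 highest cells and to -0.56 with the level halved, and Lats2 to -0.59 at a 10% mitochondrial limit. All 4 reversals rest on few UMIs.

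Counts of members at least 2-fold higher moved as follows. A pseudocount of 0.1 CPM gave 5 in suffix 2 over suffix 1, 1 in the enterocyte gate of suffix 1, 1 in the stem gate of suffix 2 and 2 in S of suffix 2. A pseudocount of 10 CPM gave 1 in suffix 2 over suffix 1, 3 in the revival gate of suffix 2 and 0 in the enteroendocrine gate and in G1 of both suffixes and in S of suffix 2. The 10% mitochondrial limit gave 1 in the enteroendocrine gate of suffix 2, 1 in the enterocyte gate and 1 in S of suffix 1, and 0 in S of suffix 2. No limit gave 1 in the enterocyte gate of suffix 1 and 1 in G1 and 0 in S of suffix 2. Without the 3 highest cells the enterocyte gate of suffix 1 had 2 and G1 of suffix 2 had 1. Averaging CPM over cells gave 1 in the enteroendocrine gate, 1 in the enterocyte gate and 0 in S of suffix 2. The doubled gate level gave 2 in the enterocyte gate of suffix 1, and phases from summed UMIs gave 0 in S of suffix 2. The causes were not tested.

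Shares of cells with a Cyr61 UMI grow with depth by construction. At 2000 UMIs per cell they were 2.02% of enteroendocrine-gated and 2.79% of ungated cells of suffix 1 and 8.14% of ungated cells of suffix 2. At 10000 UMIs they were 7.87%, 10.6% and 26.9%. Without thinning they were 10.5%, 20.9% and 42.2%, and 6.88% in the enteroendocrine gate of suffix 2.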
